A study of Rattus norvegicus with 6 samples.

Results

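The genes described here are 10 cartilage genes: the transcription factors Sox9, Sox5 and Sox6, the secreted signal Indian hedgehog (Ihh), and the matrix genes Acan, Hapln1, Comp, Matn3, Chad and Cnmd. They were taken by symbol from a table of 34045 genes, and all 10 symbols were found. Expression had been measured by RNA sequencing in calvarial bone defects, holes made in the skull roof of wild type male Sprague-Dawley rats, 4 weeks after surgery. There were 3 libraries from defects that received the CGG hydrogel and 3 from defects that received the CGG-Cit hydrogel. The labels spell out neither gel and give no age for the rats. No untreated or empty defect was analysed here, so both groups carry an implant. Each difference is between these groups of libraries, and the gel, the animal and the tissue taken cannot be told apart as its source. The labels do not say that the libraries of a group came from separate rats, and the p-values therefore cover only the scatter among these libraries, which may be technical.

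Cartilage is built by chondrocytes. Sox9 starts their differentiation and, together with the related factors Sox5 and Sox6, switches on the genes of the cartilage matrix. That matrix is a mesh of type II, IX and XI collagen filled with aggrecan (Acan), a proteoglycan whose chondroitin sulfate chains hold water and which the link protein Hapln1 fastens to hyaluronan. Comp, Matn3 and Chad bind collagens and other matrix proteins, and chondromodulin (Cnmd) is a membrane glycoprotein of cartilage that restrains vessel growth. Ihh is made by chondrocytes that are about to enlarge in growth cartilage. The skull roof forms mostly from membrane, without a cartilage model, although cartilage can appear in its sutures and in healing bone.

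Levels are given as FPKM, in which fragments are divided by gene length and by library size, so that genes of different length can be compared. Whole fragments could be recovered from the table, and they summed to 14744207 to 16224920 per library. At this depth 1 fragment of the 2272-base Ihh gene was worth 0.0262 to 0.0289 FPKM. Intervals on fragments given here are exact Poisson 95% intervals and cover counting error only. Differences were tested with limma on log2(FPKM + 1) over the 15965 genes that averaged 0.5 FPKM or more, and the threshold was an adjusted p of 0.05. A positive log2 fold change means a higher level in CGG-Cit, and this scale understates the change of low genes.

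None of the 10 genes exceeded 7.57 FPKM in any library. Comp had the highest mean over the 6 libraries, 5.90 FPKM (range 1.87 to 7.57), followed by Acan at 4.84 (3.66 to 7.53), Sox6 at 3.39 (1.92 to 5.52) and Chad at 2.64 (1.17 to 6.23). The ranges of these 4 neighbours overlapped. Sox9 averaged 0.739 FPKM (0.306 to 1.27) and Matn3 0.635 (0.098 to 0.970), and their ranges overlapped with those of Sox5, Ihh and Hapln1. Sox5 at 0.351 FPKM, Ihh at 0.274, Hapln1 at 0.260 and Cnmd at 0.0365 lay under the filter and were not tested. The filter was therefore passed by 6 of the 10 genes, of which Matn3 averaged under 0.5 FPKM in CGG-Cit (0.494) and over it in CGG (0.777).

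**Figure D1:**
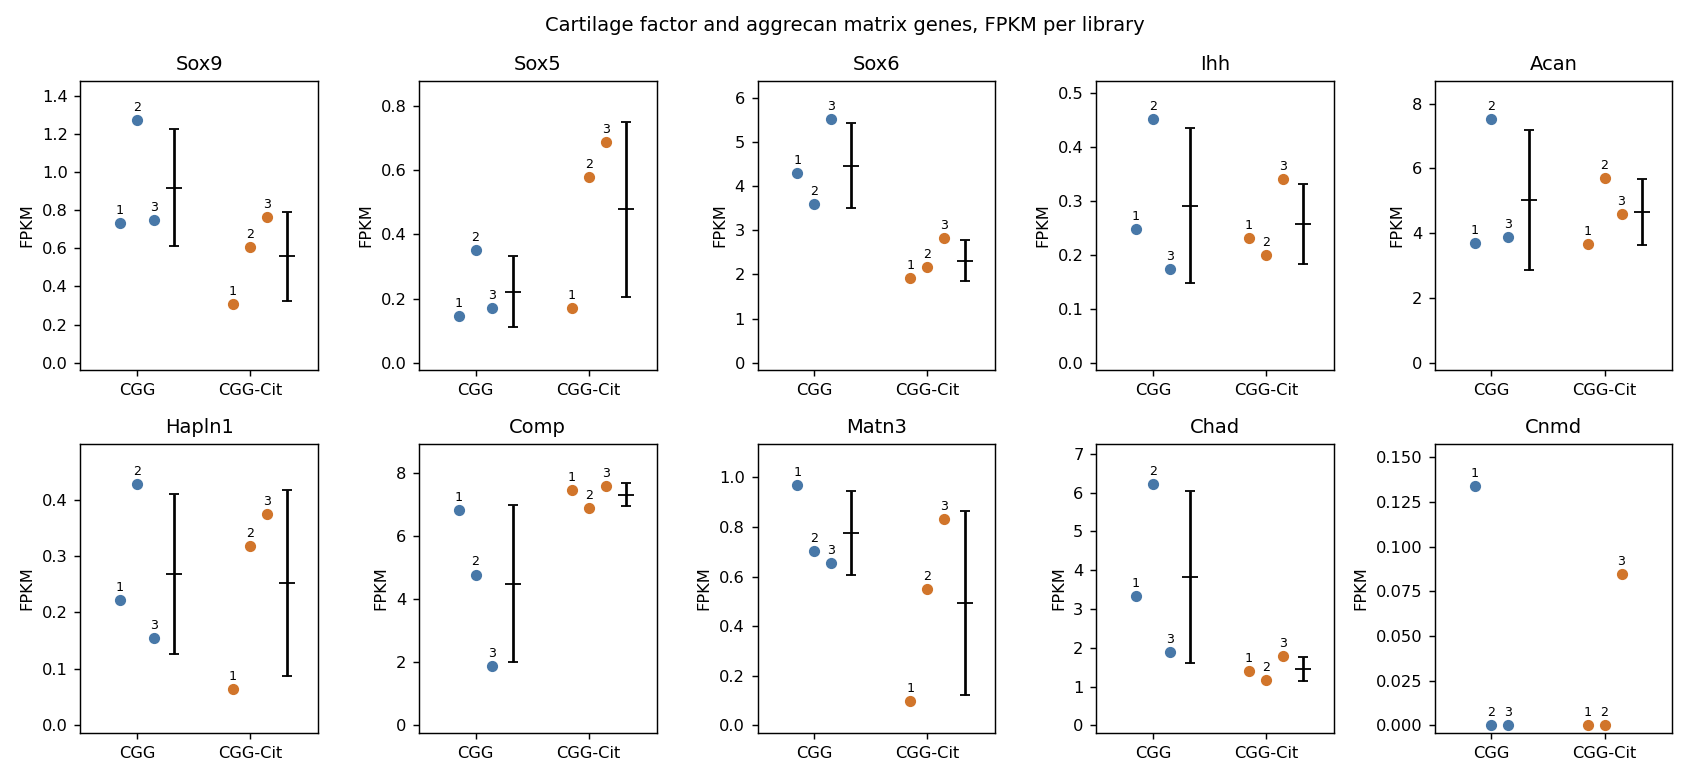
FPKM of the 10 genes in each library (y axis from 0, a separate scale for each gene), with CGG in blue and CGG-Cit in orange. Numbers beside points are replicate numbers and black bars are mean ± SD (n = 3), left out for Cnmd. The groups are apart in Sox6, Chad and Comp and overlap in the other genes.

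The markers of chondrocytes, listed for checking the tissue with earlier results of these data known, differed widely in level. Col2a1, the main collagen of cartilage, stood at 0.428, 3.21 and 0.579 FPKM in CGG 1, 2 and 3 and at 0.202, 0.286 and 3.13 in CGG-Cit 1, 2 and 3. Col9a1 was at 0 in 4 of the 6 libraries, with 5 fragments in CGG 2 and 8 in CGG-Cit 3. Of the 10 markers, 5 lay under the filter on low values. Matn1, a matrilin of cartilage, was at 0 in CGG 2, CGG 3, CGG-Cit 1 and CGG-Cit 3, and Snorc was at 0 in CGG 3. Their summed level of 85.8 to 98.4 FPKM in CGG and 44.7 to 90.2 in CGG-Cit came mostly from Col11a2, Ucma and Cytl1, which ranged from 9.78 to 70.1, 6.67 to 45.8 and 4.94 to 29.3 FPKM over the libraries. For comparison, Col1a1, the main collagen of bone, stood at 3401 to 8623 FPKM. The 10 genes are therefore described by their names and not as a measure of cartilage. In bulk tissue, fewer cells of a type and less RNA per cell cannot be told apart.

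Of the 6 genes tested, Sox6 fell in CGG-Cit and 0 rose. Over all genes tested, 17.5% were called by the same rule, 9.78% lower and 7.75% higher in CGG-Cit (1561 and 1237 genes), so 1 call among 6 genes is not a result about the group. Rescaling to TPM turned the balance of all genes to 948 lower and 2203 higher. At an unadjusted p under 0.05 the numbers were 2 lower (Sox6 and Chad) and 0 higher, and voom, a fit on the recovered fragments, called 1 lower and 0 higher. The libraries of the groups did not overlap in Sox6, Chad and Comp, 3 of the 6 genes, against 41.7% of all genes tested. Sox6 and Chad lay lower in CGG-Cit, as did 22.1% of all genes tested without overlap, and Comp higher, as did 19.6%. The median log2 fold change was -0.29, and that of all genes tested was 0.002.

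Sox6, a SoxD factor without an activation domain of its own that helps Sox9 bind cartilage genes, stood at 4.29, 3.60 and 5.52 FPKM in CGG 1, 2 and 3, from 212, 174 and 260 fragments. In CGG-Cit 1, 2 and 3 it stood at 1.92, 2.18 and 2.83 FPKM, from 91, 104 and 147 fragments. Each CGG-Cit library was below every CGG library. The group means were 4.47 ± 0.973 and 2.31 ± 0.468 FPKM (SD, n = 3), 1.93-fold lower in CGG-Cit. The log2 fold change was -0.72 ± 0.180 (SE; 95% interval -1.15 to -0.29; limma adjusted p = 0.0397). Sox6 no longer passed without CGG 1 (adjusted p = 0.0946), CGG 2 (0.0581), CGG 3 (0.116), CGG-Cit 1 (0.1004) or CGG-Cit 2 (0.122), after rescaling to TPM (0.0795) or without the filter on low values (0.0723). Its log2 fold change was -0.94 to -0.58 over the 15 alternatives.

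Sox6 is also expressed outside cartilage, in red cell precursors, where it takes part in silencing embryonic globin, and in muscle, where it represses slow fibre genes. The summed level of 9 erythroid markers was 1128 to 1393 FPKM in CGG and 361 to 668 in CGG-Cit, and 8 of these 9 genes fell. Klf1, a factor of red cell precursors, stood at 73.4, 71.6 and 82.3 FPKM in CGG and at 24.2, 22.0 and 43.2 in CGG-Cit. The summed level of 8 markers of skeletal muscle fibres was 5893 to 8436 FPKM in CGG and 40.5 to 314 in CGG-Cit, and all 8 fell. For 7 markers of the B cell lineage the sums were 126 to 198 and 53.8 to 90.7 FPKM, with 4 lower, and for 8 osteoblast markers 8875 to 12992 and 4320 to 7372 FPKM, with 5 lower. None of these markers was at 0 in any library. Over all genes tested, 9.78% were called lower. The marker lists were chosen with earlier results of these data known, so their falls are no independent finding. Their part in the lower Sox6 level was not tested.

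**Figure D2:**
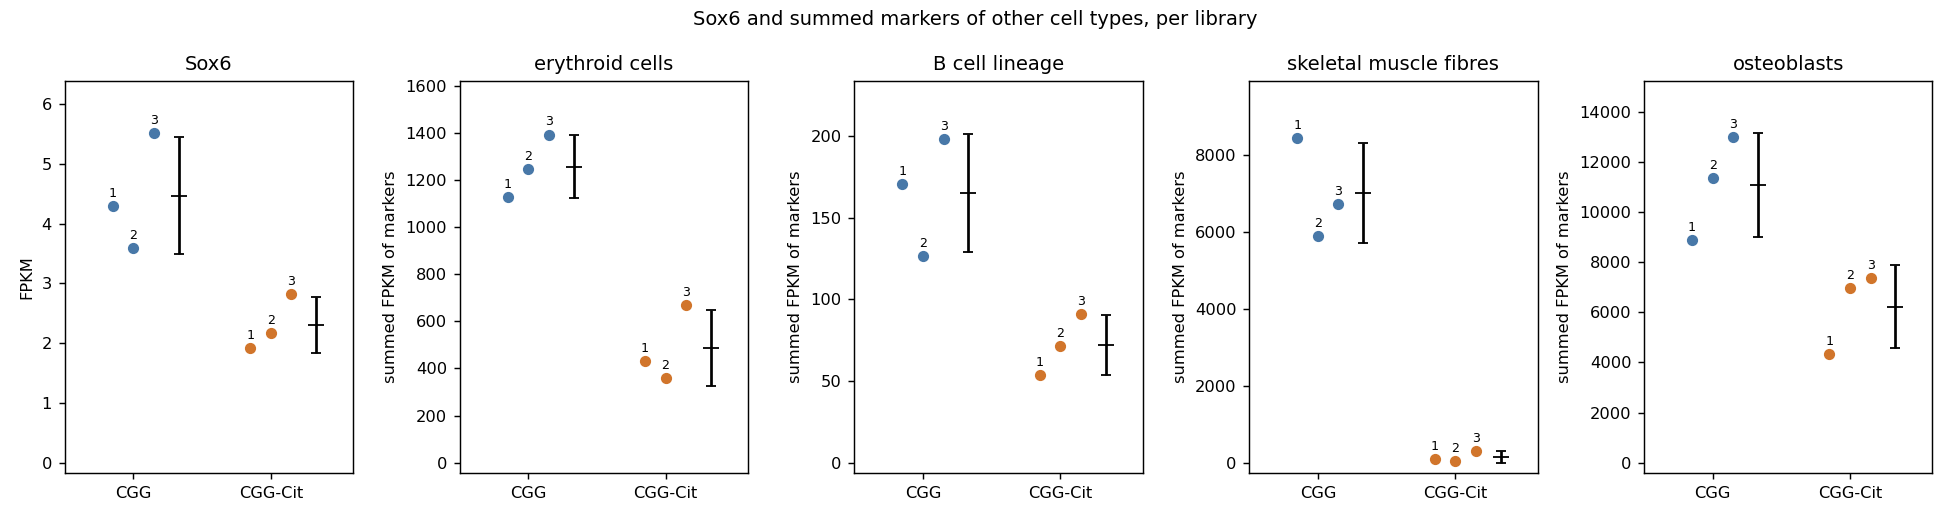
Sox6 (FPKM, leftmost) and the summed FPKM of the markers of 4 other cell types in each library (y axes linear, a separate scale for each). Points are libraries with their replicate numbers and black bars are mean ± SD (n = 3). In all 5 plots the 3 CGG-Cit libraries lie below the 3 CGG libraries.

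Sox5, the other SoxD factor, showed no such pattern. It stood at 0.145, 0.351 and 0.171 FPKM in CGG 1, 2 and 3 and at 0.170, 0.580 and 0.688 in CGG-Cit 1, 2 and 3. CGG-Cit 2 and CGG-Cit 3 were the highest libraries and CGG-Cit 1 lay at the level of CGG 3, so the groups overlapped. These values rest on 8 to 40 fragments, with intervals of 3.45 to 15.8 for the 8 fragments of CGG 1 and 28.6 to 54.5 for the 40 of CGG-Cit 3. When every gene was tested without the filter, the log2 fold change of Sox5 was 0.26 (95% interval -0.12 to 0.65; adjusted p = 0.348). The level of Sox5 relative to Sox6 was 0.0309 to 0.0976 in CGG and 0.0884, 0.266 and 0.243 in CGG-Cit 1, 2 and 3.

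Sox9, the SoxE factor without which no cartilage forms, stood at 0.733, 1.27 and 0.749 FPKM in CGG 1, 2 and 3. In CGG-Cit 1, 2 and 3 it stood at 0.306, 0.606 and 0.767 FPKM. CGG 2 was the highest and CGG-Cit 1 the lowest, and CGG-Cit 3 lay above CGG 1 and CGG 3. The means were 0.918 ± 0.307 and 0.560 ± 0.234 FPKM (SD, n = 3), and the log2 fold change of -0.30 had a 95% interval of -0.78 to 0.19 (adjusted p = 0.338). The log2 fold change of Sox9 was -0.17 without CGG 2 and -0.18 without CGG-Cit 1, and it was -0.66 with a pseudocount of 0.1 and -0.74 with voom (adjusted p from 0.247 to 0.620 in these 4 fits). Sox6 exceeded Sox9 in every library, 2.83- to 7.36-fold.

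Other Sox genes and regulators of chondrocytes showed calls in both directions. Of the 11 tested, among 17 in the table, 1 rose and 1 fell, with a median log2 fold change of 0.02. This number of calls is near the share over all genes tested, 17.5% (7.75% higher and 9.78% lower). Arid5b, a partner of Sox9 at cartilage genes, rose from 5.57 ± 0.724 to 9.13 ± 0.567 FPKM (SD, n = 3; adjusted p = 0.0219). Mef2c, a factor of enlarging chondrocytes that muscle and blood cells also express, fell from 27.4 ± 1.30 to 14.8 ± 3.61 FPKM (adjusted p = 0.0248). Sox13, the third SoxD gene, averaged 6.31 ± 1.11 and 5.85 ± 0.807 FPKM (adjusted p = 0.709), with a log2 fold change of -0.09 that turned to 0.06 after rescaling to TPM. By group means it was more abundant than Sox6 or Sox5, although in CGG 3 it stood at 5.44 FPKM and Sox6 at 5.52. Trps1 had a log2 fold change of 0.34 (adjusted p = 0.156) and Runx2 one of -0.23 (adjusted p = 0.263). Sox11 was at or below 0.237 FPKM in every library, and Foxa2 was at 0 in all 6. The call of Arid5b held without CGG-Cit 3 and ended without each of the other 5 libraries, with adjusted p of at most 0.0712. That of Mef2c ended without CGG-Cit 2 and without each CGG library, with adjusted p of at most 0.0802.

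Ihh, the hedgehog ligand of growth cartilage, was near the limit of detection. It was counted with 9, 16 and 6 fragments in CGG 1, 2 and 3 and with 8, 7 and 13 in CGG-Cit 1, 2 and 3, which is 0.248, 0.451 and 0.173 FPKM and 0.230, 0.200 and 0.341 FPKM. CGG 2 was the highest and CGG 3 the lowest, so the CGG-Cit libraries lay within the range of CGG. The counting intervals of the highest and the lowest library, 9.15 to 26.0 and 2.20 to 13.1 fragments, overlapped, so no difference between libraries was detectable at this depth. Shh, which signals through the same receptor, had no fragment in any CGG library and reached at most 0.151 FPKM, and Dhh stood at 0.212 to 1.63 FPKM.

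Among the receptors, carriers and effectors of hedgehog signalling, 3 of 15 genes tested rose and 0 fell. By the same rule 7.75% of all genes tested rose and 9.78% fell. The median log2 fold change of the 15 genes was 0.18. Cdon, a co-receptor that binds the ligand, rose from 2.66 ± 0.290 to 6.49 ± 0.904 FPKM (SD, n = 3), a log2 fold change of 1.03 ± 0.139 (SE; adjusted p = 0.0110). Gas1, another co-receptor, rose from 74.7 ± 9.78 to 116 ± 14.4 FPKM (SD, n = 3; adjusted p = 0.0274). Smo, the membrane protein that carries the signal inward, rose from 9.55 ± 1.02 to 14.5 ± 1.37 FPKM (adjusted p = 0.0262). The genes that hedgehog signalling switches on had intervals that span 0. Ptch1, the receptor and a target, averaged 3.48 ± 0.358 and 2.91 ± 0.659 FPKM, a log2 fold change of -0.21 (95% interval -0.61 to 0.19; adjusted p = 0.411). Gli1, a target and effector, had a log2 fold change of -0.10 (95% interval -0.62 to 0.41; adjusted p = 0.770), which was 0.05 without CGG 2. Hhip, also a target, stood at 0.0475 to 0.0907 FPKM in CGG and 0.0862 to 0.284 in CGG-Cit, from 2 to 12 fragments, and was not tested. Scube2, which helps release the ligand, had a log2 fold change of 0.46 (adjusted p = 0.0727, and 0.0489 with voom, where the value was 0.75). Pth1r, the receptor of the loop in which Ihh holds back chondrocyte enlargement and also a receptor of osteoblasts, averaged 74.0 ± 5.27 and 41.2 ± 16.3 FPKM, with a log2 fold change of -0.92 (adjusted p = 0.0845). Without CGG-Cit 1 the log2 fold change of Pth1r shrank to -0.54 while its adjusted p became 0.0408. The calls of Cdon, Gas1 and Smo ended without CGG 3, those of Gas1 and Smo also without CGG 2 or CGG-Cit 2, and that of Smo also without CGG 1 or CGG-Cit 1, with adjusted p of at most 0.0942. Most markers of fibroblasts, and some of meningeal cells, the lining of the brain under the skull roof, were also higher in CGG-Cit. The summed level of 8 fibroblast markers was 831 to 1399 FPKM in CGG and 1722 to 2028 in CGG-Cit, with 6 called higher. That of 8 meningeal markers was 35.0 to 315 and 178 to 1700 FPKM, so the groups overlapped, with 3 called higher. The meningeal marker Crym went the other way, from 6.46 to 3.32 FPKM (limma adjusted p = 0.0660). None of these markers was at 0 in any library, and their part in the hedgehog values was not tested. Of 8 Schwann cell markers, 0 were called in either direction with limma (0 with voom, and 1 higher and 0 lower by unadjusted p under 0.05).

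Acan stood at 3.69, 7.53 and 3.87 FPKM in CGG 1, 2 and 3 and at 3.66, 5.70 and 4.60 in CGG-Cit 1, 2 and 3, from 388 to 817 fragments. CGG 2 was well above the others and the CGG-Cit libraries lay within or just below the range of CGG. The means were 5.03 ± 2.17 and 4.66 ± 1.02 FPKM (SD, n = 3). The log2 fold change was -0.05 with a 95% interval of -0.68 to 0.58 (adjusted p = 0.906), and it turned to 0.11 after rescaling to TPM, to 0.23 without CGG 2 and to 0.08 without CGG-Cit 1.

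Hapln1, which locks aggrecan onto hyaluronan, stood at 0.222, 0.427 and 0.155 FPKM in CGG 1, 2 and 3 and at 0.0643, 0.318 and 0.375 in CGG-Cit 1, 2 and 3. CGG 2 was again the highest and CGG-Cit 1, with 5 fragments (interval 1.62 to 11.7), the lowest. Acan exceeded Hapln1 16.7- to 25.0-fold in CGG and 56.9-, 17.9- and 12.3-fold in CGG-Cit 1, 2 and 3. Vcan, a proteoglycan of the same family found in many soft tissues, averaged 9.47 ± 2.49 and 10.1 ± 2.48 FPKM and so exceeded Acan in either group (adjusted p of the group difference 0.794). Its log2 fold change of 0.09 was -0.08 without CGG 1 and without CGG-Cit 1.

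Libraries of the same group differed widely in these genes. Within CGG, CGG 2 was the highest library in 6 of the 10 genes, and within CGG-Cit, CGG-Cit 3 was the highest in 9 of 10 and CGG-Cit 1 the lowest in 6. Among the 6 tested genes, CGG 2 was the highest CGG library in 3 and CGG-Cit 3 the highest CGG-Cit library in 5, against 33.5% and 36.8% of all genes tested. Among the 6257 expressed genes under the filter, where the other 4 genes lie, these shares were 26.2% and 26.3%. The 10 genes were counted in the same libraries, so these counts describe the libraries and not the gels. Col2a1 was 5.55-fold higher in CGG 2 than in the next CGG library and 10.9-fold higher in CGG-Cit 3 than in the next CGG-Cit library. Acan did not follow Col2a1 in size: the level of Acan relative to Col2a1 was 2.34 in CGG 2 and 1.47 in CGG-Cit 3, against 6.69 to 20.0 in the other 4 libraries. Col10a1, the collagen of enlarged chondrocytes, had 25 fragments in CGG-Cit 3 and 0 to 3 in every other library.

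**Figure D3:**
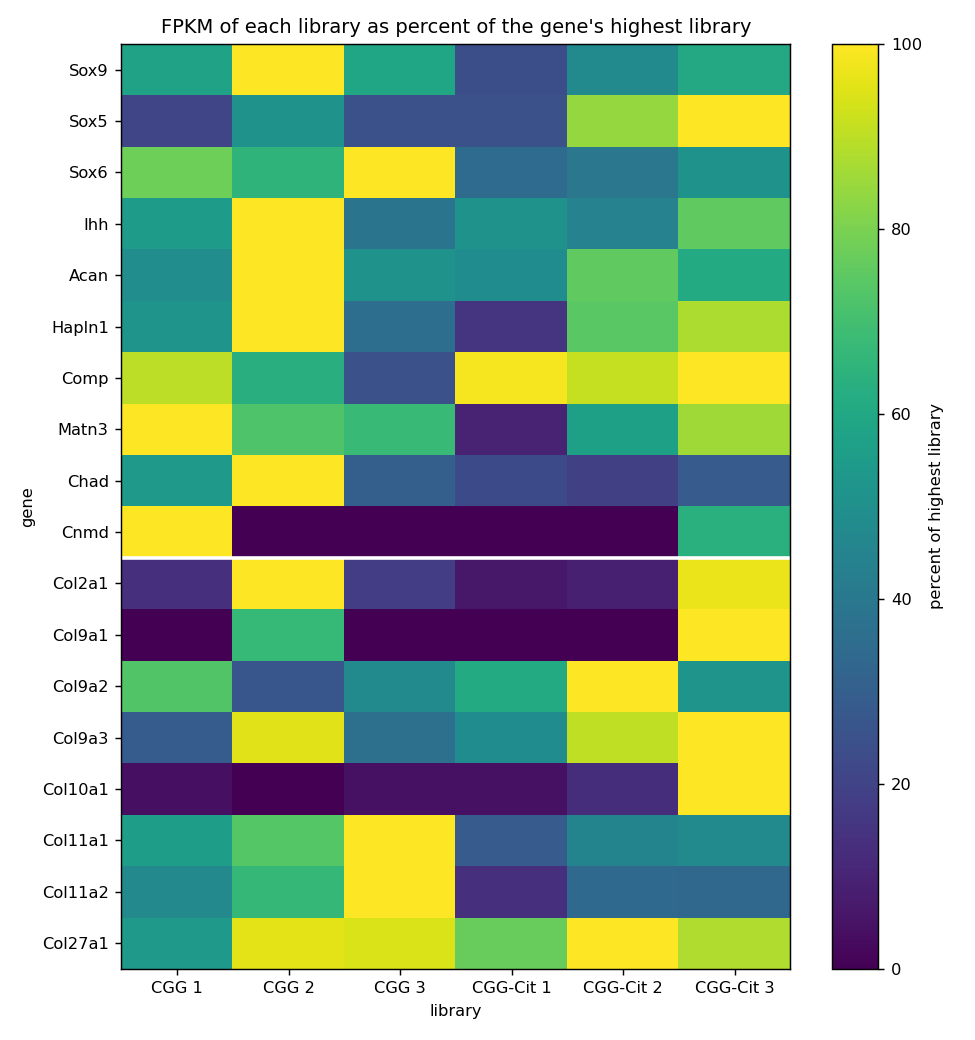
Each library (x axis) as a percentage of the highest library of each gene (y axis), for the 10 genes (above the white line) and 8 cartilage collagen genes (below it). Col2a1 and Col9a1 reach their highest values in CGG 2 and CGG-Cit 3, as Ihh and Hapln1 do, whereas Sox6, Col11a1 and Col11a2 are highest in CGG 3.

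Across the 6 libraries, the log2 values of Col2a1 correlated at 0.88 with Ihh, 0.78 with Hapln1, 0.75 with Sox9, 0.60 with Acan, 0.14 with Sox6 and 0.02 with Comp (Pearson's r, n = 6, given as a description). Sox6 correlated at 0.90 with Col11a1, 0.94 with Klf1 and 0.99 with Pax5, a factor of B cells. All these values share the 6 libraries and the difference between the groups. The 5 named protein-coding genes with the highest correlation with Sox6 were Cdip1, Arfgef1, Hnrnpm, Hirip3 and Srsf1 (r of 0.997 to 0.999), and 578 of 13906 genes exceeded 0.95. For Sox9 they were Zbtb16, Cavin2, Fam20a, Pcyt2 and Mtus1 (0.988 to 0.991), and for Acan Cog7, Mafk, Fbln7, Gnas and Col16a1 (0.968 to 0.984).

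The cartilage collagens gave 0 calls in either direction among 5 genes tested with limma (2 lower at an unadjusted p under 0.05, and 2 lower with voom). Col11a1 and Col11a2, chains of the collagen that nucleates cartilage fibrils and that bone also makes, were the most abundant. Col11a1 averaged 72.3 ± 21.2 and 38.2 ± 9.53 FPKM (log2 fold change -0.89; adjusted p = 0.0611) and Col11a2 49.9 ± 18.8 and 19.1 ± 8.04 (-1.38; adjusted p = 0.0576), and in neither did the groups overlap. With voom both passed, at an adjusted p of 0.0498 for Col11a1 and 0.0471 for Col11a2. Col2a1 had a log2 fold change of -0.19 with a 95% interval of -1.64 to 1.26 (adjusted p = 0.847), Col9a2 one of 0.29 (adjusted p = 0.430) and Col27a1 one of 0.11 (adjusted p = 0.727). The Col2a1 value was 0.30 without CGG 2, 0.12 without CGG-Cit 1 and 0.07 without CGG-Cit 2.

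Comp, a pentameric protein that binds collagen in cartilage, tendon and ligament, stood at 6.83, 4.78 and 1.87 FPKM in CGG 1, 2 and 3. In CGG-Cit 1, 2 and 3 it stood at 7.48, 6.90 and 7.57 FPKM. The CGG-Cit libraries lay close together and just above CGG 1, while CGG 3, with 80 fragments (interval 63.4 to 99.6), was far lower. The means were 4.49 ± 2.49 and 7.32 ± 0.366 FPKM (SD, n = 3). The log2 fold change of 0.71 had a 95% interval of -0.11 to 1.54 (adjusted p = 0.193), and it was 0.30 without CGG 3 and 1.03 without CGG 1. Among 7 markers of tendon and ligament, the summed level was 121 to 249 FPKM in CGG and 176 to 231 in CGG-Cit, with CGG 3 the lowest library of all, and none was at 0. Of these markers Thbs4 fell, from 57.2 to 18.4 FPKM (limma adjusted p = 0.0274), and 0 were called higher. At an unadjusted limma p under 0.05 the numbers were 3 lower and 1 higher, so the sum hides markers that moved in opposite directions. Their part in the Comp values was not tested.

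Chad, a leucine-rich protein that binds collagen and cell surfaces, stood at 3.35, 6.23 and 1.89 FPKM in CGG 1, 2 and 3 and at 1.40, 1.17 and 1.79 in CGG-Cit 1, 2 and 3. All CGG-Cit libraries were below all CGG libraries, but CGG-Cit 3 and CGG 3 differed by less than the intervals of their 73 (57.2 to 91.8) and 70 (54.6 to 88.4) fragments. The means were 3.82 ± 2.21 and 1.45 ± 0.311 FPKM (SD, n = 3), and the log2 fold change was -0.88 (95% interval -1.67 to -0.10; unadjusted p = 0.0329, adjusted p = 0.110). Chad did not pass in any of 15 alternatives (adjusted p from 0.0715 to 0.257). Its log2 fold change was -0.54 without CGG 2 and -1.20 without CGG 3.

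Matn3, a matrilin that links collagen fibrils to aggrecan, stood at 0.970, 0.703 and 0.656 FPKM in CGG 1, 2 and 3 and at 0.0980, 0.550 and 0.833 in CGG-Cit 1, 2 and 3. CGG-Cit 1 was the lowest with 3 fragments (interval 0.619 to 8.77), and CGG-Cit 3 lay within the range of CGG. The log2 fold change was -0.28 (95% interval -0.84 to 0.28; adjusted p = 0.437), and -0.07 without CGG-Cit 1 and -0.44 without CGG-Cit 3. With a pseudocount of 0.1 the value of Matn3 was -0.81, with one of 0.5 it was -0.43, and with voom -1.02 (adjusted p = 0.327). Cnmd was counted with 3 fragments in CGG 1, 2 in CGG-Cit 3 and 0 in the other 4 libraries, where the floor used for a count of 0, 3 fragments, stands for 0.137 to 0.140 FPKM. The exact Poisson interval of a count of 0 is slightly wider and reaches 3.69 fragments. No difference in Cnmd was detectable at this depth.

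**Figure D4:**
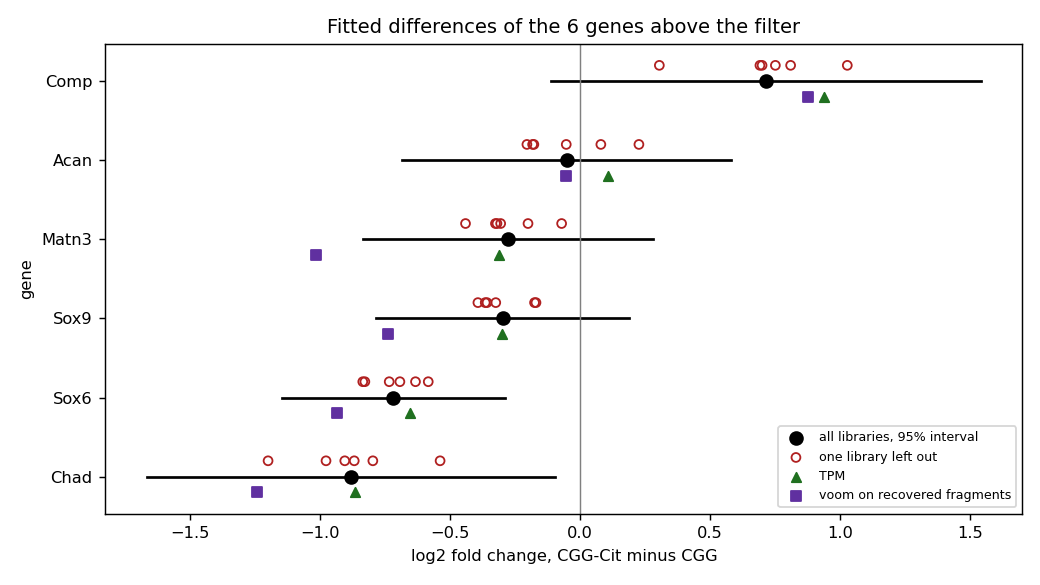
Log2 fold changes (x axis, CGG-Cit minus CGG) of the 6 genes above the filter on low values. Black points and lines are the fit of all 6 libraries with its 95% interval, red circles leave out 1 library each, green triangles use TPM and violet squares use voom on fragments. The intervals of Sox6 and Chad lie below 0, those of the other 4 genes include 0, and Comp alone has all its points above 0.

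RefSeq promoters, here the 250 bases before and 50 bases after the gene start in the GRCr8 build, were at hand for 6 of the 10 genes. Sox6 is on the minus strand there but on the plus strand in the deposited table, and the reason was not tested. Acan, Hapln1, Matn3, Chad and Comp have the same strand in both. The promoters of the 3 genes whose groups did not overlap, Sox6, Chad and Comp, are shown 5′ to 3′ on the strand of the gene so that their sequence can be set beside their values. Capitals mark the motifs searched, on both strands. These were ACAAAG and its variant ACAATG, which are core letters that Sox factors bind, the TATA box TATAAA, and the motif GACCACCCA of the Gli factors of hedgehog signalling. No marked motif overlaps another.
Sox6, chr1:179665322-179665621, minus strand: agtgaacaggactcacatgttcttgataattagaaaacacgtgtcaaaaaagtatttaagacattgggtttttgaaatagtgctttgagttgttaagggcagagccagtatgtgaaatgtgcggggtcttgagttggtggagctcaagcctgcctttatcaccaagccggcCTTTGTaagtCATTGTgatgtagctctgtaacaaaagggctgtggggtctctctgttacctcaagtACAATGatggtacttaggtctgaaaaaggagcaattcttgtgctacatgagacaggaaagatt
Chad, chr10:80008795-80009094, plus strand: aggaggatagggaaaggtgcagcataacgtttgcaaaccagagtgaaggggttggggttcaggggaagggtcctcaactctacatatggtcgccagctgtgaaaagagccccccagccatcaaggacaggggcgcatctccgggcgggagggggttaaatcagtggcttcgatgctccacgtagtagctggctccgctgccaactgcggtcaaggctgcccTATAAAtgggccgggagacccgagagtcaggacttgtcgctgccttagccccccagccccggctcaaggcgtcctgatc
Comp, chr16:19089499-19089798, minus strand: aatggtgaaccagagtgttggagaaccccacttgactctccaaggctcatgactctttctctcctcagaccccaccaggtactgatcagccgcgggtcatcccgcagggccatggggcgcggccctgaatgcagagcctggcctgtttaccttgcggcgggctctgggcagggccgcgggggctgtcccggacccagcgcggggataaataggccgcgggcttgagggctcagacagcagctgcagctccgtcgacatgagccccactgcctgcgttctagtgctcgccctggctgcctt
The window of Sox6, the gene that fell, held CTTTGT beginning 79 bases before the gene start, CATTGT beginning 69 bases before it and ACAATG beginning 13 bases before it. The first of these is ACAAAG on the other strand, and the second is ACAATG on the other strand. ACAAAG or ACAATG on either strand was found in 29.1% of all 33469 promoters of this length, and among the 6 promoters in those of Sox6 and Hapln1. The Chad window held TATAAA 29 bases before the start, a motif found in 14.2% of all promoters. The Comp window held none of the 4 motifs, and GACCACCCA, present in 0.385% of all promoters, was in none of the 6. The windows were 42.0% (Sox6), 60.0% (Chad) and 64.7% (Comp) G and C, where the median promoter had 51.7%. A match describes the letters of the window and no site of binding.

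Among 20 other matrix genes of cartilage and dense connective tissue, 3 of 11 tested rose and 0 fell, with a median log2 fold change of 0.49. By the same rule 7.75% of all genes tested rose and 9.78% fell. Cilp, a protein of the middle zone of cartilage that fibroblasts also make, rose from 26.2 ± 8.96 to 76.2 ± 20.3 FPKM (SD, n = 3; adjusted p = 0.0230). The matrilins Matn4 and Matn2, relatives of Matn3, rose by 0.66 and 0.54 on the log2 scale (adjusted p = 0.0287 and 0.0459). Prg4, the lubricant of joint surfaces, had a log2 fold change of 0.47 (adjusted p = 0.0733). The part of the fibroblast markers given above, 6 of 8 of which were higher, in these rises was not tested. The calls of Cilp, Matn4 and Matn2 held without CGG 1 and ended without any other library, with adjusted p of at most 0.126, except that Cilp also held without CGG-Cit 3. Matn2 did not pass when genes of low level were kept in (adjusted p = 0.0681).

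Acan itself gave no call, but several genes for enzymes that cut aggrecan did. Of 8 protease genes and the inhibitor gene Timp3, 4 rose and 1 fell, with a median log2 fold change of 0.45. Of all genes tested, 7.75% were called higher and 9.78% lower. Adamts5, the main aggrecanase of mouse cartilage, stood at 13.5, 10.1 and 7.62 FPKM in CGG and at 16.8, 19.7 and 26.7 in CGG-Cit, a log2 rise of 0.96 ± 0.234 (SE; adjusted p = 0.0367). Adamts15 rose by 1.62 (adjusted p = 0.0293) and Adamts1 by 0.71 (adjusted p = 0.0240), and Timp3, which inhibits these enzymes and was named after its value was seen, rose by 0.64 (adjusted p = 0.0487). Mmp13, a collagenase of enlarged chondrocytes and osteoblasts, fell by 0.94 (adjusted p = 0.0192). The other protease genes were not called: Adamts4 (log2 fold change 0.18), Adamts8 (-0.58), Adamts9 (-0.26) and Mmp3 (0.45), with limma adjusted p of 0.383 to 0.541. The part of the fibroblast markers in these values was not tested. All 5 calls ended without CGG 3 or CGG-Cit 2. They also ended without CGG 1 (Adamts1, Adamts15, Timp3), CGG 2 (Adamts5, Timp3), CGG-Cit 1 (Adamts1, Adamts5, Mmp13, Timp3) or CGG-Cit 3 (Adamts5, Adamts15, Timp3), with adjusted p of at most 0.118. Without the filter on low values Adamts5 (adjusted p = 0.0614), Adamts15 (0.0521) and Timp3 (0.0743) did not pass, nor did Timp3 with median-of-ratios scaling (0.0507).

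The enzymes that build chondroitin sulfate and hyaluronan, the sugar chains around aggrecan, gave 3 higher and 2 lower calls among 26 genes tested. This number of calls is near the share over all genes tested, 17.5% (7.75% higher and 9.78% lower). The median log2 fold change of the 26 genes was 0.04. Chpf, a partner of the chain-building polymerase, rose from 34.5 ± 4.11 to 50.4 ± 4.87 FPKM (SD, n = 3; adjusted p = 0.0294), Ugdh, which makes the glucuronate donor, rose by 0.37 on the log2 scale (adjusted p = 0.0396), and Xylt1, which starts the chains and was named after its value was seen, rose by 0.71 (adjusted p = 0.0435). Papss1, which makes the sulfate donor, fell by 0.73 (adjusted p = 0.0176) and the sulfotransferase gene Chst13 fell by 0.92 (adjusted p = 0.0274). Chst11, the main chondroitin sulfotransferase of growth cartilage, averaged 7.91 ± 0.796 and 8.38 ± 0.384 FPKM (adjusted p = 0.645). All 5 calls ended without CGG 3 or CGG-Cit 2. They also ended without CGG 1 (Chpf, Ugdh, Xylt1, Chst13), CGG 2 (Ugdh, Xylt1, Chst13), CGG-Cit 1 (Chpf, Ugdh, Xylt1, Papss1) or CGG-Cit 3 (Chpf, Xylt1, Chst13), with adjusted p of at most 0.136. Xylt1 did not pass when genes of low level were kept in (adjusted p = 0.0711).

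**Figure D5:**
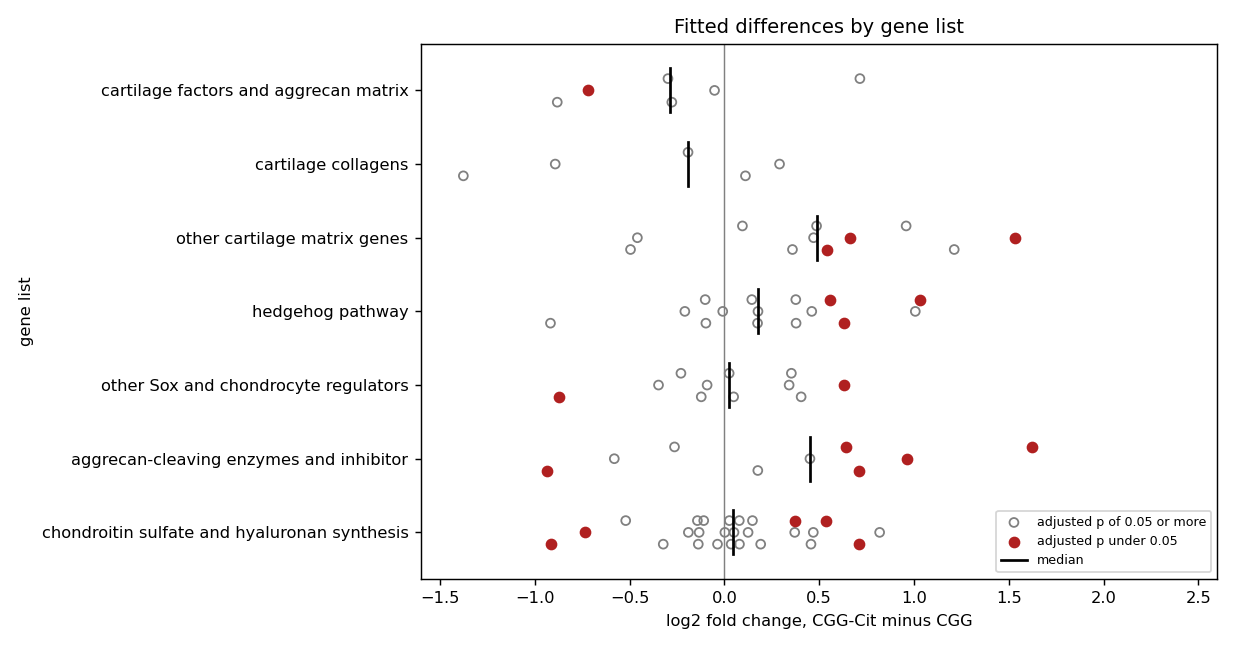
Log2 fold changes (x axis, CGG-Cit minus CGG) of the genes above the filter in the 10 cartilage genes and in 6 lists of related genes (y axis). Red points passed at an adjusted p under 0.05, open circles did not, and black bars are list medians. The list medians run from -0.29 to 0.49, where the median of all genes is 0.002.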

How the data were processed

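The authors deposited a table of FPKM per gene and library. The build mRatBN7.2 and the tools DESeq2 1.20.0, featureCounts 1.5.0-p3 and HISAT2 2.0.5 appear in the submitters' processing notes, without roles. Annotation release and strand setting: not given in the sources used here, so overlapping and antisense genes cannot be told apart. Genes of chromosome 1 in the table end as far as base 282724300, which is at odds with mRatBN7.2. This also exceeds the last gene end of chromosome 1 in GRCr8, 270492571. The coordinates could therefore be tied to neither of these builds, and other builds were not compared. Coordinates of single genes in the table are not printed. FPKM times gene length gave whole multiples of 1 fragment in 100% of values above 0, within 0.01 fragments.

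limma 3.58.1 (R 4.3.3, lmFit, eBayes with trend) was fitted to log2(FPKM + 1) with Benjamini-Hochberg adjustment over the 15965 genes at a mean of 0.5 FPKM or more, and was tested on simulated data. Groups came from the sample titles. Alternatives were other pseudocounts, filters and scalings, voom on recovered fragments, the replicate block and each library left out. The voom fit used the library sizes behind the FPKM.

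The 10 genes, 6 related lists and 9 marker lists were chosen with earlier results of these data known. Of 165 list symbols, 158 matched the table and the others were not analysed here. Named were the 10 genes, up to 4 genes of smallest p in each related list, 15 genes set by name (of which Pthlh and Sox4 were not analysed here) and markers set beside a result. Shh, Dhh, Foxa2, Timp3, Xylt1, Gdf5, Bmpr1b, Adamts4, Adamts8, Adamts9 and Mmp3 were named after their values were seen.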

Additional observations from a re-analysis of the deposited data

How the results depend on the processing

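Of the 6 genes tested, Sox6 alone was called, and the number of these genes called lower fell from 1 to 0 after rescaling to TPM and without the filter on low values, and was 0 to 1 when a library was left out. Over all genes, 2203 were higher and 948 lower under TPM, where the median log2 fold change over all genes was 0.16 in place of 0.002, and 122 to 1312 were higher and 190 to 1622 lower when a library was left out. Same-numbered libraries did not deviate together from their group means (correlations of -0.0956, 0.00165 and -0.0779). With 3 libraries per group this cannot show whether a replicate number marks a shared animal, batch or day, and the labels do not say. With the replicate number as a block 612 genes were higher and 1055 lower, 1558 of the 1667 being called in the unblocked fit as well. Sox6 still passed with the block (adjusted p = 0.0486), while 14 of the 18 called genes of the related lists did not. The direction of the log2 fold change turned for Acan (0.11) and Sox13 (0.065) under TPM. Leaving out a library turned it for Acan (-0.20 to 0.23), Col2a1 (-0.77 to 0.30), Col27a1 (-0.085 to 0.21), Gli1 (-0.29 to 0.049), Sox13 (-0.18 to 0.027) and Vcan (-0.082 to 0.27). None of these genes was called in any fit, and the cause was not tested. Depth limits Sox5, Ihh, Hapln1, Matn3 and Cnmd, with 0 to 40 fragments per library.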

Other observations

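Gdf5, a growth factor of joint and tendon formation, lay under the filter on low values and was picked after its values were seen, so it has no test. It was counted with 2, 3 and 2 fragments in CGG 1, 2 and 3 and with 20, 12 and 24 in CGG-Cit 1, 2 and 3, which is 0.0842 to 0.129 FPKM and 0.522 to 0.961 FPKM. Bmpr1b, a receptor that binds Gdf5, stood at 0.101 to 0.242 FPKM in CGG and 0.379 to 0.565 in CGG-Cit, from 3 to 18 fragments per library. Bmpr1b also lay under the filter and was picked after its values were seen. In both genes each CGG-Cit library was above every CGG library. This held for 19.6% of the genes above the filter, and the share among genes under it, where both lie, was not counted. Genes picked for their values cannot be set against such a share.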
